A study of Mus musculus with 6 samples.

Results

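Molecular chaperones of 3 kinds, the heat shock proteins, the DNAJ co-chaperones and the CCT chaperonin subunits, were followed in mouse keratinocytes with and without the Mediator subunit Med1. The members were taken by name alone: every probe whose platform gene symbol begins with Hspa, Hspb, Hspd, Hspe, Hsph or Hsp90, with Dnaj, or with Cct and a digit, plus Cryab, Bag3 and Hsf1. This gave 100 of the 25697 probes on the array and 73 of its 16593 named genes (Hsf1 was not analysed here). All 100 probes matched a RefSeq gene by Entrez ID. The rule itself uses no expression value, but it was chosen with earlier results of these data known.

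The KO samples were epidermal keratinocytes of C57BL6 mice, 10 wk old, in which Cre driven by the keratin 14 promoter had deleted floxed Med1, and the CON samples were from Cre-negative littermates that carried the same floxed alleles (Med1 fl/fl). Cre from this promoter acts in basal keratinocytes and their descendants, cells of the hair follicle and sebaceous gland included. Skin was treated with trypsin, the epidermis was lifted off, and RNA from the released cells was hybridized to a 1-colour bead array, with 3 arrays per group. The labels give skins of 2 mice per group, so some of the 3 arrays may be technical replicates, and p-values then measure only the spread between arrays. The paper states a larger n for this comparison, and which arrays share a mouse is not known. CON skin was in telogen at this age and KO skin showed an abnormal shift to anagen. The paper's wounding methods describe KO skin as anagen patches amid telogen skin. Genotype and hair cycle phase thus cannot be told apart in these samples.

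Chaperones bind unfolded or partly folded proteins and keep them from aggregating. HSP70 proteins do this in cycles of ATP hydrolysis that DNAJ proteins start and nucleotide exchange factors end, HSP90 and the barrel-shaped HSP60 and CCT machines finish the folding of particular clients, and small heat shock proteins hold unfolded clients until an HSP70 takes over. The factor HSF1 induces many of these genes under heat or other protein damage, and a separate response induces the chaperones of the endoplasmic reticulum. In the epidermis, which lives at the surface and fills its cells with keratin, they are known for their part in stress tolerance and in differentiation.

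Most chaperone genes did not pass the test in Med1 KO keratinocytes. Of the 73 genes, 41 were above background on at least 3 of the 6 arrays (detection p below 0.01) and were tested, among 7461 tested genes. The genes Dnajc6, Hspa2, Dnajc27, Cryab, Dnajb2 and Hspb8 fell and Dnajb3 and Dnajc15 rose (limma, adjusted p below 0.05 over all tested probes), while 33 genes had no call. Dnajc27 was tested only because its CON arrays were above background. The 6 falls were 14.6% of the tested members, against 14.7% of all tested genes, and the 2 rises were 4.88%, against 14.1% of all tested genes. The count of rises moved with the processing, to 4 under 6 of the alternatives, the authors' normalized values among them, and to 0 with arrays scaled to a common median. KO and CON arrays did not overlap for 16 members (39.0%), against 45.2% of all tested genes. The median change over the 41 members was -0.03 (KO minus CON, log2), with a range of -0.91 to 0.53, and that over all genes was -0.00. The median size of a change, whatever its sign, was 0.19 for the members and 0.22 for all genes. The share of falls was thus near the background, and nothing particular to chaperones is read from these counts. In RNA from a mixture of cells, fewer cells of a type and less RNA per cell cannot be told apart.

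**Figure D1:**
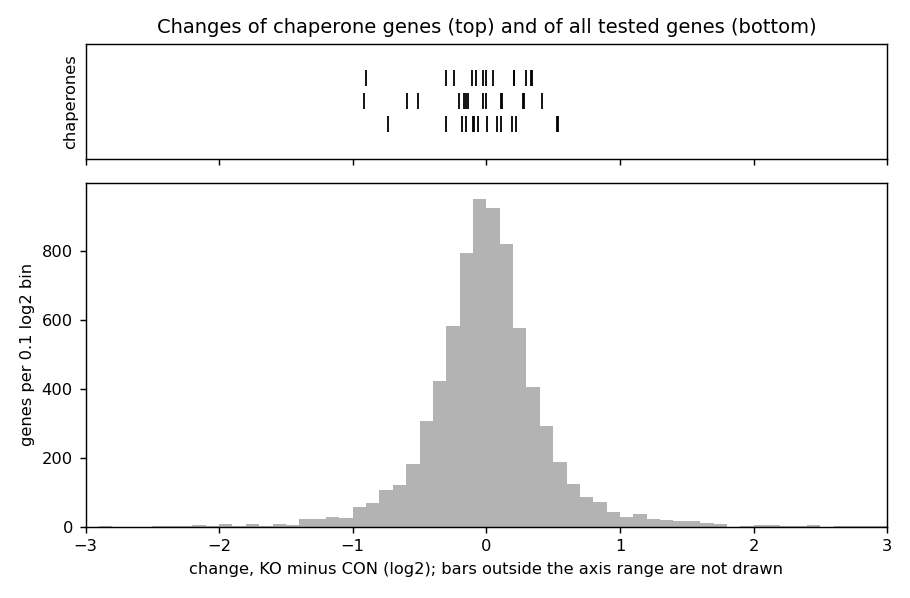
Changes in expression (log2, KO minus CON). The upper panel has a tick for each of the 41 tested chaperone genes (3 rows only to keep ticks apart), and the lower panel counts all 7461 tested genes in bins of 0.1. The ticks lie between -0.91 and 0.53, near the middle of the histogram.

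Med1 itself was read on the array as a check of the labels. The 1 tested Med1 probe had levels of 5.85, 5.71 and 6.13 in the 3 KO arrays and 7.09, 6.81 and 6.69 in the 3 CON arrays (log2 intensity after normalization, as for all levels given here), a change of -0.96 ± 0.15 (SE, adjusted p = 0.00179). The KO arrays all lay below the CON arrays. Where this probe lies relative to the deleted exons is not known here, so it does not check the deletion by itself. Between 9866 and 10636 probes were detected per array, and arrays of a group correlated at 0.989 to 0.993 across tested probes, against 0.965 to 0.968 between groups.

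The fall with the smallest adjusted p was that of Dnajc6, which encodes auxilin, the DNAJ protein that brings HSP70 to clathrin-coated vesicles so that the coat is stripped off, and which is best known from neurons. Its level was 8.45, 8.53 and 8.40 in the 3 KO arrays and 9.34, 9.37 and 9.41 in the 3 CON arrays. In raw intensity these were 356.7, 470.6 and 464.2 in KO and 862.6, 725.6 and 680.2 in CON. The highest KO array thus lay below the lowest CON array on both scales. The change was -0.91 ± 0.09, a 1.88-fold lower level in KO (adjusted p = 0.000214). A second Dnajc6 probe gave 6.51, 6.47 and 6.24 in KO and 7.35, 7.09 and 6.69 in CON, again without overlap, for a change of -0.64 ± 0.17 (adjusted p = 0.0224). Hspa8, the constitutive HSP70 on which auxilin acts, had a change of -0.08 (95% interval -0.29 to 0.13). Its second tested probe changed by -0.23, and neither had a call. Dnajc5, the cysteine string protein of secretory vesicles, had a change of -0.09 (interval -0.31 to 0.13) and no call.

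Hspa2 fell next. It encodes an HSP70 best known from the testis, where male germ cells need it for meiosis. The level of Hspa2 was 10.10, 10.16 and 10.06 in the 3 KO arrays, against 10.90, 10.76 and 10.86 in the 3 CON arrays. The groups were apart, with each held within a narrow band. The change was -0.73 ± 0.09, or 1.66-fold lower in KO (adjusted p = 0.000721). The second Hspa2 probe read 7.64, 7.38 and 7.56 in KO and 8.37, 8.35 and 8.56 in CON and changed by -0.90 ± 0.11 (adjusted p = 0.000638). The call of Hspa2, like those of Dnajc6 and Cryab, was kept under all 19 alternative settings.

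**Figure D2:**
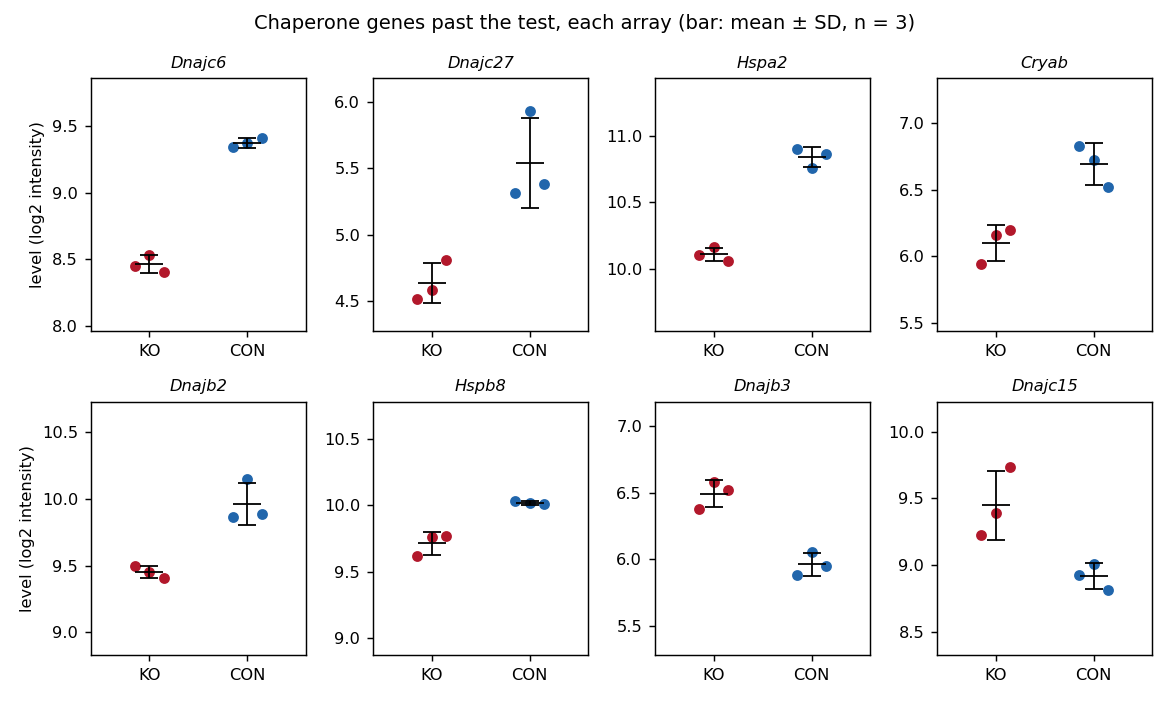
Levels (log2 intensity) of the 8 chaperone genes past the test, 3 KO arrays (red, left) and 3 CON arrays (blue, right) in each panel, with mean ± SD (n = 3). Every panel spans the same number of log2 units. In all 8 panels the KO and CON points do not overlap, and 6 genes are lower and 2 higher in KO.

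None of the other tested HSP70 and HSP110 genes passed, beside 14.1% of all tested genes higher and 14.7% lower. Hspa1a, the classical heat-induced HSP70, had levels of 9.82, 9.70 and 9.87 in KO arrays and 9.72, 9.59 and 9.74 in CON arrays, a change of 0.11 (95% interval -0.11 to 0.34). The KO and CON arrays overlapped. A probe of this gene may also bind transcripts of its near-identical neighbour, so the value may belong to both. Hspa8 read 12.42, 12.48 and 12.34 in KO and 12.54, 12.44 and 12.49 in CON, also with overlap. Hspa9, the mitochondrial HSP70, had a change of 0.01 (interval -0.20 to 0.21), and Hsph1, an HSP110 that recharges HSP70 with ATP, had one of -0.15 (interval -0.48 to 0.18). The HSP70 that fell and the one induced by heat are set side by side here through their promoters, the 250 bases before the RefSeq start site (assembly GRCm38.p6). The Hspa2 window is chr12:76404120-76404369 on the plus strand, and that of Hspa1a is chr17:34972157-34972406 on the minus strand. HSF1 is known to bind repeats of the unit NGAAN in alternating orientation. Capitals in the Hspa1a window mark its only match to GAANNTTC, 2 such units tail to tail. The Hspa2 window held neither GAANNTTC nor TTCNNGAA, and is printed in lower case throughout.
Hspa2: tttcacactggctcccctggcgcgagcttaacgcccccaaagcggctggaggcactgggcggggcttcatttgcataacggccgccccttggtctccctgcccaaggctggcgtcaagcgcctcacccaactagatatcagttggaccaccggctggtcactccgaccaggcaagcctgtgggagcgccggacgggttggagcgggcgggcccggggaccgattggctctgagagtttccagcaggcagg
Hspa1a: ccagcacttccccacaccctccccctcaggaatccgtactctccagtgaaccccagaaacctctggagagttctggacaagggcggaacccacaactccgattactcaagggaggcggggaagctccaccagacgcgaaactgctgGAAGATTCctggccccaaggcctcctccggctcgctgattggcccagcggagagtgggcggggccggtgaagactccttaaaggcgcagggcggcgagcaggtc

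Among the small heat shock proteins, which hold unfolded clients without using ATP, 2 of the 4 tested genes fell and none rose, beside 14.7% of all tested genes lower and 14.1% higher, and 1 of the 2 calls, that of Hspb8, was lost when any array was left out. Cryab encodes alpha-B-crystallin, abundant in lens and muscle. The Cryab levels were 5.94, 6.16 and 6.20 in KO arrays and 6.83, 6.72 and 6.52 in CON arrays. The closest pair, the third array of each group, was 6.20 in KO and 6.52 in CON. The change of Cryab was -0.59 ± 0.12, or 1.51-fold lower in KO (adjusted p = 0.00715), and without background correction it was -0.29. Hspb8 encodes a partner of Bag3, with which it passes damaged proteins to autophagy. Its levels were 9.62, 9.76 and 9.77 in KO and 10.04, 10.02 and 10.01 in CON, with the groups apart. The change of Hspb8 was -0.30 ± 0.09, 1.23-fold lower (adjusted p = 0.0409). With 1 of the 6 arrays left out the adjusted p of Hspb8 was 0.0690 to 0.125, and the call did not hold with arrays scaled to a common median (0.301) or a looser detection p of 0.05 (0.0548). Bag3, its partner, had a change of -0.06 (interval -0.27 to 0.14), with levels of 10.93 to 11.04 in the KO arrays and 11.01 to 11.08 in the CON arrays.

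Hspb6 and Hspb1 were the small heat shock genes without a call. Hspb6, which binds the cytoskeleton and is best known from smooth muscle, read 9.22, 9.29 and 9.27 in KO arrays and 8.64, 8.73 and 9.16 in CON arrays. The groups were apart, with the third CON array close to the KO arrays. The change of Hspb6 was 0.42 ± 0.14 (adjusted p = 0.0560), just above the threshold of 0.05, and without the third CON array the change was 0.58 (adjusted p = 0.00767). For Hspb1, the small heat shock protein best known from keratinizing epidermis, the levels were 10.14, 10.08 and 9.86 in KO and 10.10, 10.54 and 10.00 in CON, with overlap, and the change was -0.19 (interval -0.54 to 0.17). As Cryab and Hspb6 are known from muscle, the muscle markers are given beside them. Of 8 muscle markers, Des, Acta1, Myh11, Ckm, Tnnt3, Actn2 and Myl1 were detected on no array, and the other one, Acta2, was higher in KO (summed level 205 to 227 in KO arrays and 102 to 118 in CON arrays, in intensity after normalization). The part of Acta2-expressing cells in these values was not tested.

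Of the 24 tested DNAJ genes, 2 rose (8.33%), 3 fell (12.5%) and 19 had no call, with a median change of 0.02. Of all tested genes 14.1% rose and 14.7% fell. DNAJ proteins share the J domain, which triggers ATP hydrolysis by HSP70, and are sorted into classes A, B and C by their other domains. Class A had 3 tested genes with no call, class B had 6 with 1 rise and 1 fall, and class C had 15 with 1 rise and 2 falls.

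Dnajb2, a class B protein with ubiquitin-binding motifs that hands clients to the proteasome, fell. The levels of Dnajb2 were 9.50, 9.46 and 9.41 in KO arrays and 9.86, 10.15 and 9.89 in CON arrays, so the groups were apart. The change was -0.51 ± 0.11, 1.43-fold lower in KO (adjusted p = 0.00883), and median scaling put it at an adjusted p of 0.0525. Dnajc27, which joins a J domain to a Rab-like GTPase, was detected on all 3 CON arrays and on 0 of the 3 KO arrays. Its values were 4.52, 4.58 and 4.81 in KO and 5.31, 5.93 and 5.38 in CON. The level was at least 1.22-fold lower in KO, a bound set against the lowest signal of detected probes on each KO array. The fitted change of -0.90, which rests on KO values below detection, had an adjusted p of 0.00538, and of 0.0637 by the methods' t-test. The probe passed the detection filter through the CON arrays alone, a selection that these p-values do not allow for.

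The 2 rises were in Dnajb3 and Dnajc15. Dnajb3, a short class B protein first known from mouse sperm, read 6.38, 6.58 and 6.52 in KO arrays and 5.88, 6.05 and 5.95 in CON arrays. Its groups were apart by more than the spread within either, and the change was 0.53 ± 0.10, 1.44-fold higher in KO (adjusted p = 0.00568). Without background correction the change of Dnajb3 was 0.25. Dnajc15, a protein of the inner mitochondrial membrane that in mice restrains respiratory complex I, read 9.22, 9.39 and 9.73 in KO and 8.93, 9.01 and 8.82 in CON. The third KO array was the highest, and all KO arrays lay above all CON arrays. The Dnajc15 change was 0.53 ± 0.14, 1.45-fold higher in KO (adjusted p = 0.0224). Without the third KO array the change of Dnajc15 was 0.39 (adjusted p = 0.0558), and 1 chaperone gene in place of 2 passed as higher; without the third CON array it was 0.48 (adjusted p = 0.0652), and by the methods' t-test the adjusted p was 0.103. With arrays scaled to a common median in place of quantile normalization, 0 chaperone genes passed as higher, with changes of 0.47 for Dnajb3 (adjusted p = 0.0690) and 0.53 for Dnajc15 (adjusted p = 0.0667).

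The DNAJ genes with the smallest changes were Dnaja3 of mitochondria (-0.00, interval -0.22 to 0.22), Dnajc7, which binds both HSP70 and HSP90 (-0.03, interval -0.27 to 0.22), Dnajc10, a disulfide reductase of the endoplasmic reticulum (0.05, interval -0.17 to 0.26), Dnaja4 (0.08, interval -0.27 to 0.43) and Dnajc5, given above. Across all 33 genes with no call, the 95% interval lay inside a 1.5-fold change in either direction for 25. For the other 8 (Dnaja2, Dnajb6, Dnajb9, Dnajb12, Dnajc16, Dnajc17, Dnajc24 and Hspb6) a change of that size is within the interval. An unadjusted p below 0.05 was reached by 6 genes with no call, Hspb6, Dnajc3, Hspe1, Dnajb12, Dnajc24 and Dnajc2, all with a positive change. These DNAJ names were picked after their values were seen. The share of all tested genes with such a p and no call was not counted, so nothing particular to chaperones is read from these 6.

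**Figure D3:**
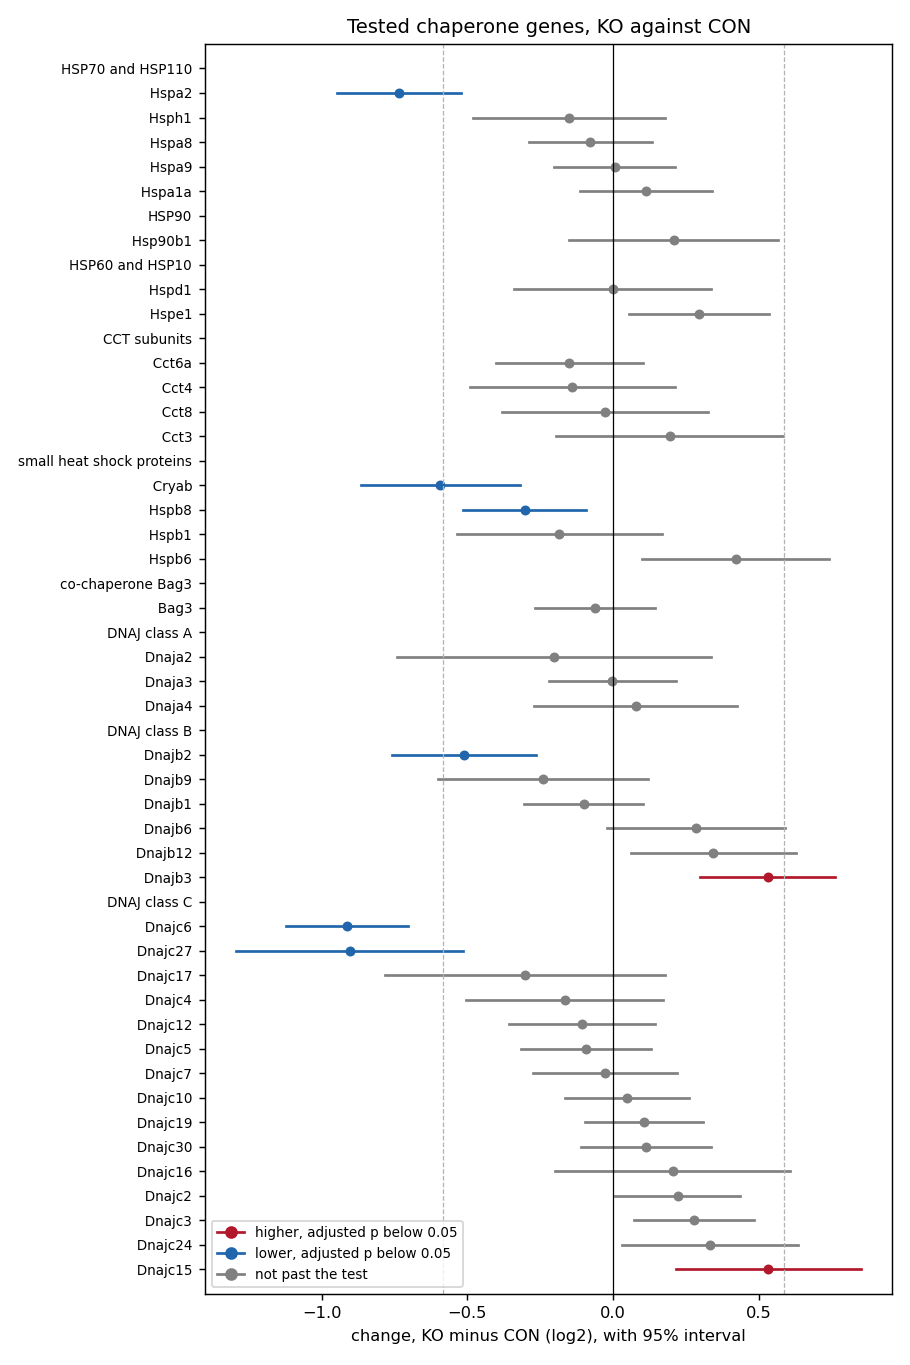
Change of each of the 41 tested chaperone genes (log2, KO minus CON) and its 95% interval, by family. Red marks the 2 genes past the test as higher and blue the 6 as lower in KO, grey marks the 33 with no call, and dashed lines mark a 1.5-fold change. The HSP90, HSP60 and HSP10, CCT and DNAJ class A families hold grey points alone, and the Dnajc27 point is a fitted value from KO arrays below detection.

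The chaperones of the textbook heat shock response were taken as a group. Of 12 such genes on the array 9 were tested, and Cryab fell (11.1%, beside 14.7% of all tested genes) while the other 8 had no call. The median change was -0.08, against -0.00 for all genes. Negative changes were 7 of the 9, that of Hspd1 (-0.00) among them, and 3749 of 7461 over all tested genes. Dnajb1, the main DNAJ partner of heat-induced HSP70, read 11.92, 12.00 and 11.97 in KO arrays and 12.09, 12.08 and 12.02 in CON arrays. The groups of Dnajb1 arrays were narrowly apart, by less than the spread within either group, and the change was -0.10 (interval -0.30 to 0.10, adjusted p = 0.445). Hsp90aa1 and Dnaja1, 2 further heat-induced genes, were detected on 0 arrays by any of their probes, and a probe that is not above background does not show that the RNA is absent.

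**Figure D4:**
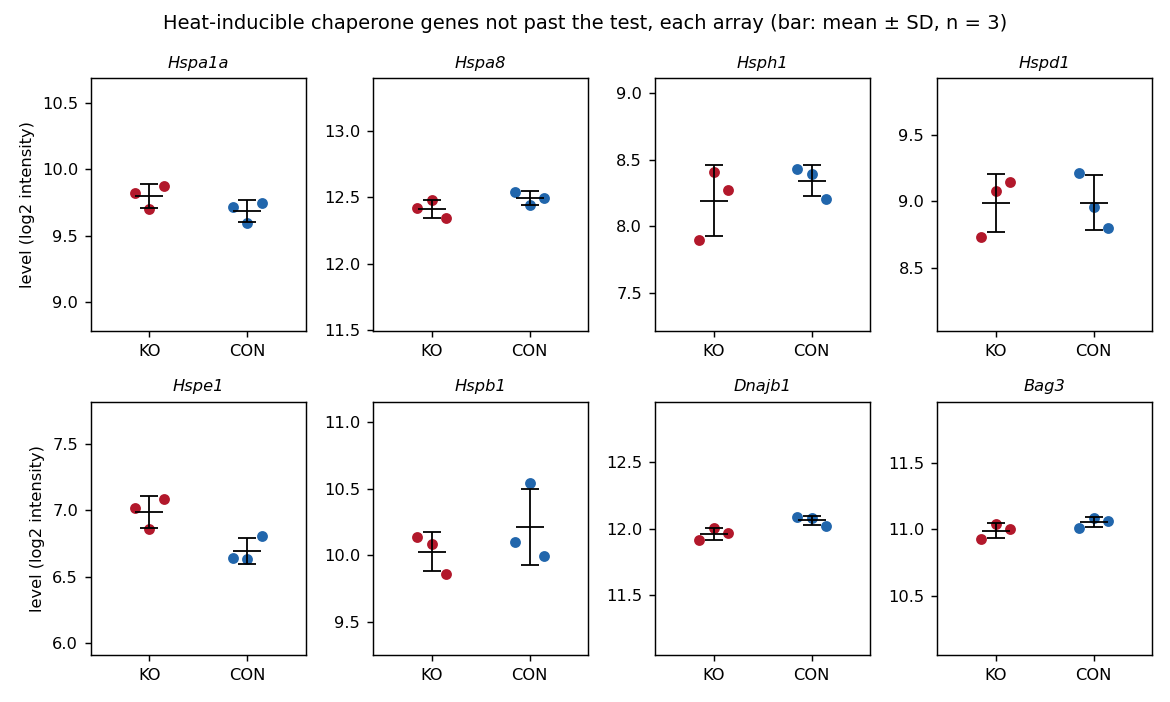
Levels (log2 intensity) of the 8 textbook heat-inducible chaperone genes with no call, 3 KO arrays (red, left) and 3 CON arrays (blue, right) in each panel, with mean ± SD (n = 3). Points of the groups overlap in 6 panels, and in those of Hspe1 and Dnajb1 they lie narrowly apart.

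Hspd1 and Hspe1 encode HSP60 and HSP10, the barrel and the lid of the mitochondrial folding chamber, from a single promoter between the genes. Hspd1 read 8.74, 9.08 and 9.15 in KO arrays and 9.21, 8.96 and 8.80 in CON arrays, with overlap, and changed by -0.00 (interval -0.34 to 0.34). Hspe1 read 7.02, 6.86 and 7.09 in KO and 6.64, 6.64 and 6.80 in CON, without overlap, and changed by 0.29 ± 0.11 (adjusted p = 0.0714). Neither passed, and whether their changes differ was not tested. The heat shock element they share is shown with that of Dnajb6, a DNAJ that holds back aggregation. No other of the 33 tested members with a RefSeq window had the motif of 3 units TTCNNGAANNTTC (either strand) in the 250 bases before its start. The remaining tested members, Cryab among them, had no window and were not searched. This motif was in the windows of 3 of 59 member genes (5.08%) and of 0.514% of all 27025 genes with such a window in RefSeq. The Hspe1 stretch is chr1:55088053-55088082, plus strand, 95 to 66 bases before the Hspe1 start. That of Dnajb6 is chr5:29735842-29735874, plus strand, 56 to 24 bases before one of its RefSeq starts. The Dnajb6 match begins 46 bases before that start and 127 bases before another. The window of another Hspd1 start lacked the motif. Capitals mark the matches, which overlap in Hspe1.
Hspe1: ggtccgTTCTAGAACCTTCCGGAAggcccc
Dnajb6: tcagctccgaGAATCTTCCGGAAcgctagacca
Dnajb6 had a change of 0.28 (interval -0.02 to 0.59). None of the 3 genes with this motif thus passed, beside 14.1% of all tested genes higher and 14.7% lower. The second tested Dnajb6 probe, which is dimmer, had a change of -0.03 (interval -0.30 to 0.24). Motifs of 2 units were commoner. TTCNNGAA was in a window of 7 of the 59 member genes (11.9%), against 8.11% of all genes, and GAANNTTC in one of 12 (20.3%), against 7.73%. Among the genes with a window, Dnajc27 was the 1 past the test that had either, by a match to GAANNTTC. These are matches of letters and not shown binding.

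The mitochondrial members include, beside HSP60 and HSP10, helpers of protein import and of respiration. Of all 8 tested, Hspd1 and Hspe1 among them, Dnajc15 rose (12.5%, beside 14.1% of all tested genes) and 7 had no call, with a median change of 0.06. Dnajc19, part of the import motor, read 10.51, 10.61 and 10.51 in KO arrays and 10.43, 10.43 and 10.45 in CON arrays. The Dnajc19 groups were apart, yet the change was small at 0.11 (interval -0.10 to 0.31) and had no call. The second tested Dnajc19 probe, which is dimmer, changed by 0.22, also with no call.

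In the endoplasmic reticulum none of the 5 tested members passed, beside 14.1% of all tested genes higher and 14.7% lower. Positive changes were 4 of 5, and the median change was 0.21. Over all tested genes 3712 of 7461 changes were positive. Hsp90b1, the HSP90 of this compartment and the 1 tested HSP90 gene, read 9.95, 9.50 and 9.91 in KO arrays and 9.81, 9.54 and 9.38 in CON arrays, with overlap, and changed by 0.21 (interval -0.15 to 0.57). Dnajc3, a co-chaperone of BiP that also restrains the kinase PERK, read 6.86, 6.86 and 6.81 in KO and 6.63, 6.56 and 6.51 in CON. The groups of Dnajc3 arrays were apart, and the change was 0.28 ± 0.09 (adjusted p = 0.0521). Dnajb9, which guides misfolded proteins to degradation, had a change of -0.24 (interval -0.60 to 0.12), and Dnajb12, of the membrane, one of 0.34 ± 0.12 (adjusted p = 0.0724). Hspa5, which encodes BiP, the HSP70 of this compartment, was detected on 0 arrays.

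The stress response element of this compartment, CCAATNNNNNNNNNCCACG, is shown because 3 members hold it on either strand of the 250 bases before their starts, Hsp90b1 with 2 copies, Dnajc3 and Hspa5, against 0.130% of all 27025 genes. The Hsp90b1 stretch is chr10:86705523-86705666 on the minus strand (222 to 79 bases before the start), that of Dnajc3 chr14:118937817-118937855 on the plus strand (115 to 77 bases), and that of Hspa5 chr2:34772015-34772053 on the plus strand (75 to 37 bases). Capitals mark the matches.
Hsp90b1: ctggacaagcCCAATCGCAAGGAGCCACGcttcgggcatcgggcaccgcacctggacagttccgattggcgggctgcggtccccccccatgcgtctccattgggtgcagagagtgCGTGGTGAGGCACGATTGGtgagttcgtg
Dnajc3: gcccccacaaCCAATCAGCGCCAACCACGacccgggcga
Hspa5: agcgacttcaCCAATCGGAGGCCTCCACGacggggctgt
In Hsp90b1 the first copy lies on the gene's own strand and the second is its reverse complement. As background, the factors that bind this element, ATF6 among them, need the CCAAT-binding factor NF-Y beside them. The CCAAT box alone was common, in a window of 24 of the 59 member genes (40.7%) and of 37.5% of all genes.

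CCT subunits form the ring that folds actin and tubulin. None of the 4 tested of 9 on the array passed, beside 14.1% of all tested genes higher and 14.7% lower. The median change was -0.08. Cct3 read 9.83, 10.27 and 10.23 in KO arrays and 9.71, 10.24 and 9.80 in CON arrays, a change of 0.19 (interval -0.19 to 0.58). Cct4 changed by -0.14 (interval -0.49 to 0.21), Cct6a by -0.15 (interval -0.40 to 0.10) and Cct8 by -0.03 (interval -0.38 to 0.33). The KO and CON arrays overlapped for all 4, while they did not overlap for 45.2% of all tested genes. With 4 genes, nothing is read from these counts.

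The other 32 members were not tested. Of these genes 28 were detected on 0 arrays and 4 (Cct5, Dnajc14, Dnajc28 and Hspa4) on 1. Besides those already named they include Cct2 and Cct7, the testis HSP70 Hspa1l, Hspa4l, Hspa13, Hspa14, and the small heat shock genes Hspb2, Hspb3 and Hspb7, known from muscle and heart. They give no level here. Of the 9 members with 2 tested probes, Cct3, Dnajb6, Dnajc19, Dnajc2, Dnajc6, Hspa2, Hspa8, Hspa9 and Hspd1, none had probes that differed in call.

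Genes of the same pathway outside the naming rule were counted too. Of 21 tested co-chaperones of HSP70 and HSP90, 3 rose (14.3%) and none fell, with a median change of -0.01. The share of rises was near the 14.1% of all tested genes, of which 14.7% fell. Fkbp5, an HSP90 co-chaperone of steroid receptors that glucocorticoids induce, read 7.14, 7.54 and 7.43 in KO arrays and 6.17, 6.06 and 6.72 in CON arrays. The Fkbp5 groups were apart, and the change of 1.05 ± 0.18 was 2.07-fold higher expression in KO (adjusted p = 0.00352). Grpel1, the nucleotide exchange factor of mitochondrial HSP70, read 9.49, 9.47 and 9.62 in KO and 8.97, 9.05 and 9.09 in CON, a change of 0.49 ± 0.09 (adjusted p = 0.00604). Its groups were apart while its HSP70 partner Hspa9 had a change of 0.01. Cdc37l1, an HSP90-binding relative of the kinase co-chaperone Cdc37, rose by 0.37 ± 0.10 (adjusted p = 0.0253), and Chordc1 had a change of 0.33 (adjusted p = 0.0985). The prefoldins and Tcp1, which deliver clients to the CCT ring or belong to it, had 0 of 4 tested genes past the test.

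In the list of other endoplasmic reticulum folding and stress genes 2 of 15 tested genes rose (13.3%) and 1 fell (6.67%), beside 14.1% and 14.7% of all tested genes. The median change was 0.22. Positive changes were 12 of the 15, and 3712 of 7461 over all tested genes. Calr, a chaperone of glycoproteins, rose by 0.46 ± 0.12 (adjusted p = 0.0232). Sec61b, of the channel through which proteins enter, rose by 0.42 ± 0.11 (adjusted p = 0.0235). Ddit3, the stress-induced factor CHOP, had levels of 8.16, 7.89 and 7.95 in KO arrays and 8.43, 8.67 and 8.68 in CON arrays, and fell by 0.59 on the log2 scale (SE 0.12, adjusted p = 0.00638). Ddit3 thus moved opposite to Calr and Sec61b. Xbp1 had a change of 0.29 (adjusted p = 0.0793). Over all such lists, 5 of 40 tested genes rose (12.5%) and 1 fell (2.50%), beside the 14.1% and 14.7% of all tested genes. The rises were 10 with the authors' normalized values, without background correction and with trended and robust moderation, 1 with median scaling, 2 by the methods' t-test, 2 without the first KO array and 3 without the third. The falls were 2 without a filter on dim probes, with the looser detection p and without the third CON array.

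Markers of the cell types in the preparation moved with genotype. Of 8 tested keratinocyte markers 3 fell (Krt15, Krt5 and Trp63) and none rose, beside 14.7% of all tested genes lower and 14.1% higher. The summed level of the 8, in intensity after normalization, was 72022 to 74817 in KO arrays and 86549 to 90267 in CON arrays. Within this sum Krt14 had the same log2 level on all 6 arrays (14.73) and Krt10 changed by -0.03. Krt5 changed by -0.68 and Krt15 by -1.36. The 6 tested sebocyte markers all rose (3609 to 3889 in KO and 1978 to 2263 in CON). Of 4 tested markers each, 3 fell for melanocytes (339 to 360 in KO and 684 to 735 in CON), 3 for Langerhans and myeloid cells (2847 to 3138 in KO and 4637 to 5333 in CON) and 4 for fibroblasts (466 to 527 in KO and 773 to 818 in CON, with Lum, Col1a1, Col1a2, Col3a1 and Pdgfra detected on no array), while 2 rose for T lymphocytes (2236 to 2652 in KO and 1824 to 2028 in CON). The endothelial list had 1 tested gene with no call, and none of 5 adipocyte markers was tested. The part of these cells in the chaperone changes was not tested.

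**Figure D5:**
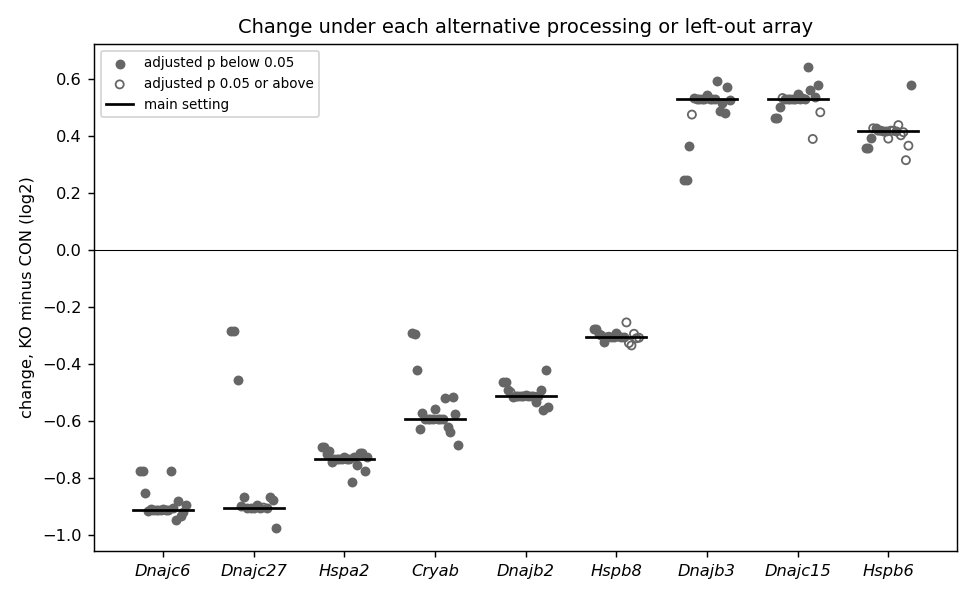
Change (KO minus CON, log2) of the 8 chaperone genes past the test and of Hspb6 under each alternative setting or with 1 array left out (circles, filled where the adjusted p was below 0.05) beside the main setting (black line). No gene changes sign, and the circles nearest 0 for Dnajc27, Cryab and Dnajb3 are settings that leave the background in.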

How the data were processed

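RNA of 3 KO and 3 CON keratinocyte samples was hybridized to Illumina MouseRef-8 v2.0 arrays. The authors deposited a probe intensity on a linear scale, neither background-corrected nor normalized, summarised in GenomeStudio (2011.1 in the submitters' processing notes), and beside it a detection p-value against negative control beads. A second deposited table, of intensity values normalized by the authors, served as an alternative. No slide or scan date is given in the files used here, so batches were not tested.

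Intensities were background-corrected from the detection p-values, given an offset of 16, quantile normalized and log2 transformed (neqc, limma 3.58.1, R 4.3.3). The offset pulls changes of dim probes towards 0, while the background correction enlarges them. The change of Cryab was -0.59 with both and -0.29 without background correction. The 10386 probes with a detection p below 0.01 on at least 3 of 6 arrays were tested with limma's lmFit and eBayes, two-sided, without covariates, and Benjamini-Hochberg adjustment over all of them. The script was tested on simulated data. A gene is represented by its tested probe with the highest mean. For a probe undetected throughout a group, the fold is a bound, taken against that group's mean of, on each array, the lowest detected signal or its own if higher. The number of arrays limits the precision.

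Probes were named from the platform annotation (23978 of 25697 named). Members, gene lists and the naming rule were chosen with earlier results of these data known. The rule named the tested members outside the DNAJ family, DNAJ members past the threshold, the 5 DNAJ members with the smallest changes and up to 4 genes per other list. Other DNAJ genes named were chosen after their values were seen. Deviations from group means correlated at -0.03, 0.07 and -0.05 between same-numbered KO and CON arrays, so the numbers were not taken to pair them. Promoters are RefSeq sequence of GRCm38.p6, for which 59 members had a window. Alternatives were other background corrections, normalizations, filters, tests and probe rules, and leaving out each array.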

Additional observations from a re-analysis of the deposited data

How the results depend on the processing

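Of the 8 chaperone genes past the test, Dnajc6, Hspa2 and Cryab kept their call under all 19 alternatives, the other 5 lost it under at least 1, and none changed sign. Dnajc27 was not tested when a CON array was left out or when detection on all 6 arrays was required, since the KO arrays did not detect it. The count of chaperone genes higher in KO, 2, was 4 with the authors' normalized values, without background correction, with an offset of 50, with detection on all 6 arrays, with trended and robust moderation and with the mean over a gene's probes, and 0 with median scaling; it was 1 to 3 with 1 array left out, 1 being without the third KO array. The count lower in KO, 6, was 4 to 5 with 1 array left out, 4 with median scaling and 5 with the methods' t-test. Other protein folding genes higher in KO, 5, were 10 with the authors' values, without background correction and with trended and robust moderation, 1 with median scaling, 2 with the methods' t-test and 2 to 5 with 1 array left out (2 without the first KO array and 3 without the third). Those lower in KO, 1, were 2 without a filter on dim probes, 2 with the looser detection p of 0.05, and 1 to 2 with 1 array left out, 2 being without the third CON array. The causes were not tested.

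With the replicate number as a replicate block, 2 chaperone genes were higher and 5 lower (Hspb8 lost its call, adjusted p = 0.0837), and 3 other folding genes were higher and 1 lower. Same-numbered arrays did not deviate together, so this block rests on a shared number only.

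Without background correction the changes of dim genes were smaller, -0.28 for Dnajc27, -0.29 for Cryab and 0.25 for Dnajb3. Hspb6 passed under 8 of the alternatives, among them the authors' normalized values (adjusted p = 0.0131). Probes near the background, 32 members here, give no level at this signal, and 3 arrays a group leave intervals that for 8 genes without a call reach past 1.5-fold.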
